A study of Homo sapiens with 9 samples.

Results

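The genes described here are 10 ligands, receptors and an inhibitor of the activin and TGF-beta pathways, out of 60671 genes counted in the series. They comprise 5 ligand genes (INHBA, INHBB, TGFB1, TGFB2 and TGFB3), 4 receptor genes (TGFBR1, TGFBR2, TGFBR3 and ACVR1) and the activin inhibitor FST, called below the 10 genes. They were chosen by name, with earlier results of these same libraries in view, and which measured values entered that choice is not recorded. Their levels and differences in the CA2 shRNA comparisons are therefore given as a description, with no p-value of their own, and support nothing beyond themselves.

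The cells were C28/I2, an immortalized human chondrocyte line, and total RNA was sequenced from 9 libraries in 3 groups. The Control group (n = 3) had the treatment Control, with no statement of whether these cells were transduced. The Scrambled group (n = 3) had the treatment Scrambled, with no further description, and the CA2 shRNA group (n = 3) received by transduction an shRNA (a hairpin RNA made to silence a gene) that targets CA2, the gene of the enzyme carbonic anhydrase 2. The series asks what loss of CA2 does to the metabolic balance of these chondrocytes. No source used here gives the hairpin sequence, the number of clones or the time after transduction. Nor do the labels say whether the libraries of a group came from separate cultures, so p-values measure the spread between these libraries, which may be technical.

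Total counts ran from 16994368 to 34261244 per library. CA2 was counted at 55, 41 and 66 reads in Control libraries, at 41, 53 and 61 in Scrambled libraries and at 28, 15 and 30 in CA2 shRNA libraries, a log2 difference of -0.77 (SE 0.23) against Scrambled (edgeR adjusted p = 0.0276) and -0.86 (SE 0.23) against Control (adjusted p = 0.0159). Among the 6 control libraries, Control 3 and Scrambled 2 were apart from the rest: the nuclear RNA NEAT1 had a level of 159 and 233 CPM (counts scaled to a common library size) in them, against 312.5 to 680.0 CPM in the others. The line's chondrocyte label was met in part, since 5 of 11 chondrocyte markers averaged at least 1 CPM over the 9 libraries and COL9A1, a cartilage collagen gene, was at 0 in every library. The summed chondrocyte markers were at 106 to 120 CPM in the 6 control libraries and 125 to 128 in CA2 shRNA libraries, a sum made up mostly of SOX9 (means of 90.7 CPM in Control, 90.9 in Scrambled and 104.6 in CA2 shRNA cells). The markers did not move as a set: the CA2 shRNA mean was above both control means for 3 of the 11 and below both for 5, COMP among these at 2.42, 2.49 and 1.35 CPM. Summed epithelial markers, mostly KRT8 and KRT18, were at 341 to 373 and 382 to 437 CPM, while CLDN3 of the same list averaged 3.64, 3.79 and 1.36 CPM. Summed fibroblast-like markers, mostly COL1A1, were at 1638 to 1851 and 1629 to 1648 CPM, with 5 of 7 means below both controls. The part of these marker shifts in the differences below was not tested.

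TGF-beta ligands are secreted in a latent form, are released by proteases, integrins or thrombospondin, and bind the type II receptor TGFBR2, which recruits and phosphorylates the type I receptor TGFBR1. Activins are dimers of inhibin beta subunits that signal through type II receptors and ACVR1B, and both families pass the signal to the transcription factors SMAD2 and SMAD3 with SMAD4. In cartilage, TGF-beta signalling is known for holding chondrocytes back from hypertrophy and for inducing matrix genes.

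INHBA and TGFBR2 were the 2 of the 10 genes with the largest falls. They were also the only 2 that carried either of the heptamers ACACCAA and CACCAAA in their 3′ untranslated region (UTR). Of the 13962 tested genes with an annotated 3′ UTR, 20.4% carried either heptamer, so 2 of 10 was no excess over all genes. The 2 heptamers share 6 letters and were picked in an earlier look at the genes that fell most in these libraries, so their presence here is a description and no test. The sites are shown because INHBA and TGFBR2 both hold them. Only these 2 heptamers were searched for, so other shared sequences were not looked at. Each window gives the transcript strand 5′ to 3′ from GENCODE 29 transcripts on GRCh38, with the matched heptamer, or the 8 letters where both overlap, in capitals. The INHBA windows lie on the minus strand at chr7:41688488-41688517 and chr7:41686310-41686338. Their capital letters start at bases 1144 and 3323 of a 3′ UTR of 4536 bases. The TGFBR2 windows lie on the plus strand at chr3:30691634-30691662 and chr3:30692627-30692655.
INHBA first site: aatagacacatACACCAAAgacatttgtgt
INHBA second site: aaaatctgcccACACCAAtcttagaagct
TGFBR2 first site: gctgcccctctCACCAAAgaacagaggca
TGFBR2 second site: tttctatacaaACACCAAtgggttccatc

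INHBA (ENSG00000122641, chr7:41667168-41705834 on the minus strand) encodes the beta A subunit of activin A. Its level, as TMM-scaled CPM, was 298, 295 and 301 CPM in Control libraries, 264, 304 and 291 in Scrambled libraries and 144, 143 and 144 in CA2 shRNA libraries. The 6 control libraries all lay above the 3 CA2 shRNA libraries, which differed from each other by less than the control libraries did. The log2 difference was -0.997 (SE 0.056) against Scrambled and -1.05 (SE 0.056) against Control, so that 50.1% and 48.2% of the control levels remained. INHBA had the largest difference of the 10 genes in both comparisons. It shares 248 exonic bases with INHBA-AS1 on the opposite strand, which had 62 to 170 counts and did not pass in either comparison.

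INHBB (ENSG00000163083, chr2:120346136-120351803, plus strand) encodes the other common activin subunit, beta B, and moved the opposite way. It was at 14.4, 13.6 and 15.3 CPM in Control libraries, 12.4, 13.7 and 12.3 in the Scrambled group and 19.4, 20.8 and 17.6 with CA2 shRNA. Again no CA2 shRNA library overlapped a control library. On the log2 scale INHBB differed by 0.58 (SE 0.094) against Scrambled and 0.41 (SE 0.094) against Control. Without Control 2 the difference from Control was 0.35 and no longer passed the threshold. FST, which encodes the secreted protein follistatin that binds and neutralizes activins (ENSG00000134363, chr5:53480626-53487134, plus strand), was at 4.29, 5.12 and 5.46 CPM in Control libraries, 3.69, 5.10 and 3.69 in the Scrambled group and 4.79, 3.92 and 4.64 with CA2 shRNA. The 3 groups overlapped, and its log2 differences of 0.10 (SE 0.17) and -0.15 (SE 0.17) had opposite signs against the 2 control groups.

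**Figure D1:**
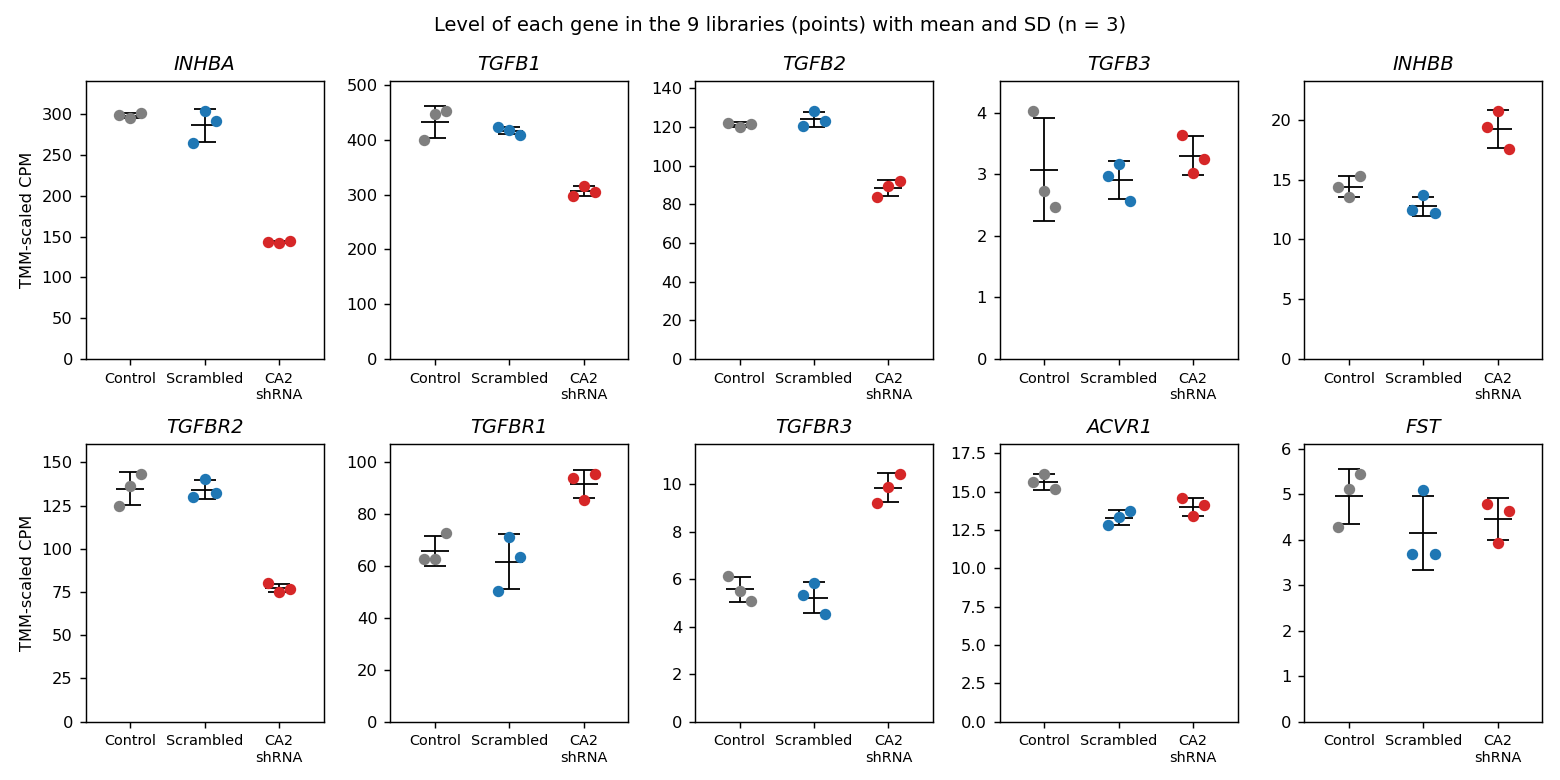
Level of each of the 10 genes in TMM-scaled CPM (vertical axis, from 0) in the 9 libraries by group; points are libraries, bars the mean and SD (n = 3). INHBA, TGFB1, TGFB2 and TGFBR2 lay lower, and INHBB, TGFBR1 and TGFBR3 higher, in every CA2 shRNA library than in every control library, while TGFB3, FST and ACVR1 did not separate from Scrambled.

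The TGF-beta ligand genes TGFB1 and TGFB2 were both lower in CA2 shRNA libraries, and TGFB3 was not separated. TGFB1 (ENSG00000105329, chr19:41301587-41353922, minus strand) was at 400.0, 447 and 453 CPM in Control libraries, 423, 419 and 409.9 in the Scrambled group and 298, 317 and 305 with CA2 shRNA. Its lowest control library was above its highest CA2 shRNA library. TGFB1 showed a log2 difference of -0.445 (SE 0.056) against Scrambled and -0.50 (SE 0.057) against Control, which left 73.5% and 70.7%. TGFB1 shares 215 exonic bases with HNRNPUL1 on the opposite strand, an abundant gene of 17535 to 33716 counts whose own log2 differences were 0.13 and 0.11 and did not pass. No source used here gives the strand setting of the counting, so reads in the shared stretch cannot be assigned to one of the 2 genes.

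TGFB2 (ENSG00000092969, chr1:218345336-218444619, plus strand) was at 122, 120 and 122 CPM in Control libraries, 121, 128 and 123 in the Scrambled group and 83.8, 89.2 and 92.3 with CA2 shRNA. The CA2 shRNA libraries were again all below the controls. TGFB2 showed a log2 difference of -0.49 (SE 0.056) against Scrambled and -0.45 (SE 0.056) against Control. On the same strand TGFB2 shares 1371 exonic bases with TGFB2-OT1, which was at 0 in every library, and no source used here says how the counting treated that stretch. TGFB3 (ENSG00000119699, chr14:75958097-75983011, minus strand), the ligand with the lowest level, was at 4.03, 2.73 and 2.46 CPM in Control libraries, 2.98, 3.18 and 2.57 in the Scrambled group and 3.64, 3.02 and 3.25 with CA2 shRNA. Control 1 was the highest of the 9 libraries and Control 3 the lowest, so the Control group spanned both others. Its log2 differences were 0.19 (SE 0.20) and 0.12 (SE 0.20).

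Among the TGF-beta receptors the signalling pair moved in opposite directions. TGFBR2 (ENSG00000163513, chr3:30606601-30694142, plus strand), the ligand-binding type II kinase, was at 125, 136 and 144 CPM in Control libraries, 130.1, 140.2 and 132 in the Scrambled group and 79.96, 75.0 and 76.95 with CA2 shRNA. No CA2 shRNA library came near the control libraries. The log2 difference was -0.80 (SE 0.061) against Scrambled and -0.80 (SE 0.062) against Control, which left 57.6% and 57.3%.

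TGFBR1 (ENSG00000106799, chr9:99104038-99154192, plus strand), the type I kinase that phosphorylates SMAD2 and SMAD3, was at 62.6, 62.6 and 72.6 CPM in Control libraries, 50.4, 71.2 and 63.3 in the Scrambled group and 94.0, 85.4 and 95.6 with CA2 shRNA. The CA2 shRNA libraries lay above the controls. The highest values of the controls were in Control 3 and Scrambled 2, the 2 control libraries with the lowest NEAT1. TGFBR1 had a log2 difference of 0.57 (SE 0.11) against Scrambled and 0.475 (SE 0.11) against Control. The difference from Control was 0.44 without Control 1 and 0.42 without Control 2, and did not pass in either case. It passed in both comparisons without Control 3 and Scrambled 2.

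TGFBR3 (ENSG00000069702, chr1:91680343-91906335, minus strand) encodes betaglycan, a co-receptor that presents TGF-beta 2 to TGFBR2 and also binds inhibin. It was at 6.13, 5.51 and 5.10 CPM in Control libraries, 5.33, 5.83 and 4.53 in the Scrambled group and 9.23, 9.90 and 10.46 with CA2 shRNA. All CA2 shRNA libraries were above all controls. The log2 difference was 0.92 (SE 0.13) against Scrambled and 0.83 (SE 0.13) against Control, the largest rise of the 10 genes in both comparisons.

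ACVR1 (ENSG00000115170, chr2:157736444-157876330, minus strand), a type I receptor that serves bone morphogenetic proteins and binds activin, showed another pattern. It was at 15.6, 16.2 and 15.2 CPM in Control libraries, 12.8, 13.4 and 13.8 in the Scrambled group and 14.6, 13.4 and 14.1 with CA2 shRNA. CA2 shRNA and Scrambled overlapped, and both lay below Control without overlap. The log2 difference was 0.07 (SE 0.088) of CA2 shRNA against Scrambled, -0.16 (SE 0.087) against Control, and -0.23 (SE 0.086) of Scrambled against Control, with an unadjusted p of 0.0154 and an edgeR adjusted p of 1.

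All 10 genes passed the filter on low counts, with 50 to 15450 counts per library. In CA2 shRNA against Scrambled 7 of the 10 passed the threshold of edgeR's quasi-likelihood test (Benjamini-Hochberg adjusted p under 0.05 over the 19812 genes tested), where 16.9% of all tested genes passed. Of these, 3 rose and 4 fell, beside 8.02% and 8.88% of tested genes. That split of all tested genes, 1589 higher and 1759 lower, turned with the scaling: it was 1810 and 1596 with DESeq2 size factors and 1372 and 1971 with upper-quartile factors. It was 864 and 1195 without Scrambled 3, 906 and 1382 without CA2 shRNA 2, and 2357 and 1654 without Scrambled 2. Without CA2 shRNA 1 it was 1536 and 1129, without CA2 shRNA 3 it was 1546 and 1164, and without Control 3 and Scrambled 2 together it was 2407 and 1882. Against Control the same 7 passed in the same directions, beside 14.7% of tested genes, 6.41% higher and 8.26% lower (1269 and 1637 genes). These were 686 and 1276 without Control 2, 663 and 1389 without CA2 shRNA 2, 1265 and 1063 without CA2 shRNA 1, 1272 and 1108 without CA2 shRNA 3, 2030 and 1632 without Scrambled 2, and 1752 and 1461 without Control 3 and Scrambled 2. The groups did not overlap for 7 genes against Scrambled and for 8 against Control, where 32.3% and 33.0% of tested genes did not overlap. The 2 comparisons share the CA2 shRNA libraries, and the genes were chosen with results in view, so nothing is read from these counts. The median log2 difference was 0.09 and -0.15 over the 10 genes and -0.025 and -0.005 over all tested genes.

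Scrambled and Control differed in none of the 10 genes by this test, and 0% of the 19812 tested genes passed. At an unadjusted p under 0.05 there were 550 genes, ACVR1 being the single one of the 10, and DESeq2 called 1 gene, which was not among the 10. In bulk RNA a lower level in each cell and fewer cells that express a gene cannot be told apart.

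**Figure D2:**
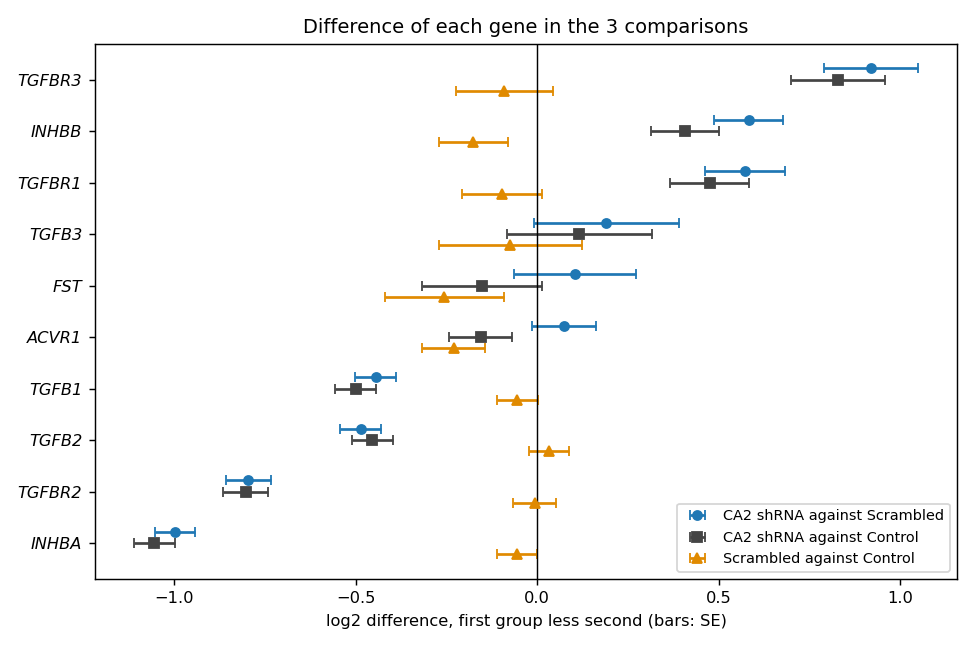
Log2 difference of each of the 10 genes (horizontal axis) with its SE from the edgeR fit to 9 libraries, with CA2 shRNA cells set against either control group and the control groups set against each other. TGFBR3, INHBB and TGFBR1 lie above 0 and TGFB1, TGFB2, TGFBR2 and INHBA below 0 in both CA2 shRNA comparisons; the 2 share the CA2 shRNA libraries.

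Levels of different genes were compared per length, as RPKM, which are CPM divided by the exon length in kilobases. In Control cells TGFB1 was highest at 133 RPKM, followed by INHBA at 35.99, TGFB2 at 20.03 and TGFBR2 at 19.7, and these last 2 overlapped. Then came TGFBR1 at 9.66, INHBB at 4.50, ACVR1 at 3.50, FST at 1.80, and TGFBR3 and TGFB3, which overlapped, at 0.651 and 0.589 RPKM. Scrambled cells had the same order with the same 2 overlaps. In CA2 shRNA cells TGFBR1 at 13.4 RPKM stood above TGFBR2 at 11.3 without overlap and overlapped TGFB2 at 14.6. TGFBR3 at 1.15 RPKM was clear of TGFB3 at 0.633.

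The ratio of TGFBR1 to TGFBR2, a measure of the balance of the 2 receptor chains at the RNA level, was 0.503, 0.462 and 0.508 in Control libraries, 0.389, 0.510 and 0.481 in the Scrambled group and 1.18, 1.14 and 1.25 with CA2 shRNA. It was thus below 1 in the 6 control libraries and above 1 in the 3 CA2 shRNA libraries. The ratio of INHBA to INHBB was 8.02 ± 0.402 in Control, 8.67 ± 0.494 in Scrambled and 2.91 ± 0.266 in CA2 shRNA cells (SD, n = 3). INHBA made up 88.9%, 89.6% and 74.3% of the RPKM of the 2 activin subunits in Control, Scrambled and CA2 shRNA cells. INHBA stood 20.2 ± 2.57 and 23.3 ± 3.24 times above FST in Control and Scrambled cells and 10.8 ± 1.13 times above it in CA2 shRNA cells (SD, n = 3). TGFB1 made up 86.6%, 85.9% and 86.1% of the TGF-beta ligand RPKM in Control, Scrambled and CA2 shRNA cells, so the ligand mix shifted by less than 1 percentage point while TGFB1 and TGFB2 fell. These ratios restate the levels of the chosen genes and carry no test.

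**Figure D3:**
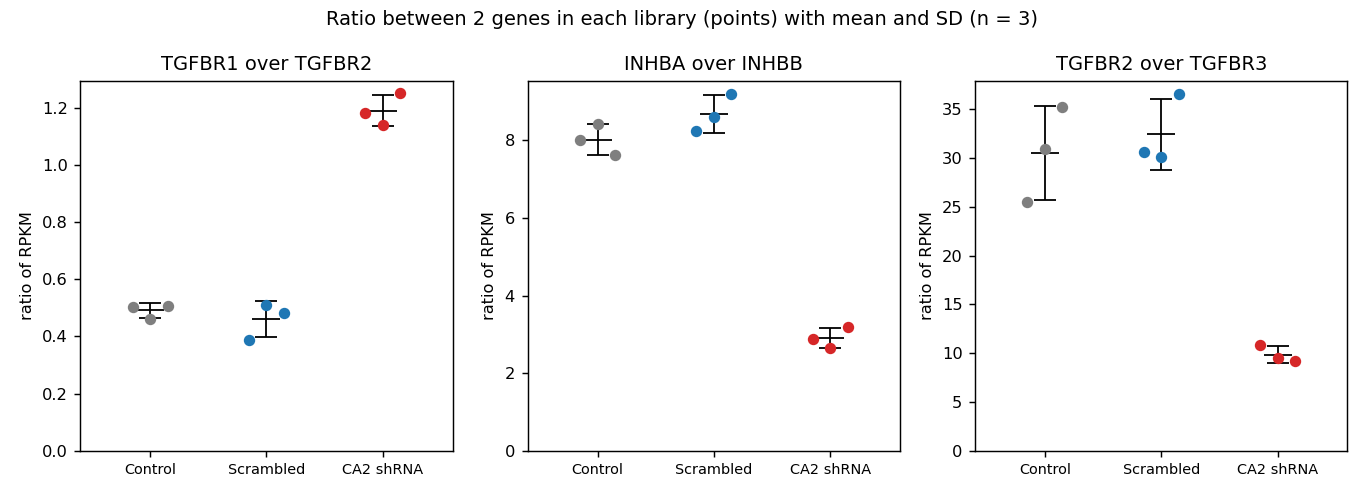
Ratio of RPKM between 2 genes (vertical axes, from 0) in each library by group, with mean and SD (n = 3): TGFBR1 over TGFBR2, INHBA over INHBB and TGFBR2 over TGFBR3. TGFBR1 over TGFBR2 lies at 0.389 to 0.510 in the control libraries and at 1.14 to 1.25 in CA2 shRNA libraries; TGFBR2 over TGFBR3 falls from means of 30.5 and 32.4 to 9.85.

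The course of INHBA, the gene with the largest difference, was set beside that of 13789 genes with a mean of at least 2 CPM, and the 5 most like it are named. They were PALLD (Pearson r = 0.9992), FSTL1 (0.9989), CDS2 (0.9982), ISCA1 (0.9979) and NSA2 (0.9972), with r taken over log2 CPM of the 9 libraries. All 5 were lower in CA2 shRNA libraries, with log2 differences from Scrambled of -1.46, -0.98, -0.68, -1.06 and -1.41. The 9 points share the contrast of 3 CA2 shRNA libraries with 6 controls.

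Of 67 other genes of the pathway, 56 passed the filter on low counts. Against Scrambled 7 of these rose, 18 fell and 31 did not pass, and against Control 6 rose, 18 fell and 32 did not pass, beside the same shares of all tested genes as above. Their median log2 difference was -0.11 and -0.13. The list was drawn up with some of its falling genes (among them FBN1 and CCN2) already known, so its direction is not independent evidence. None of the 56 passed between Scrambled and Control in edgeR, 2 had an unadjusted p under 0.05, and DESeq2 called none of them. All p-values below are edgeR's, adjusted over all tested genes. They set each difference beside the spread of these libraries. Which genes of the list were already known is not fully recorded, so none of them is a fresh test.

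Of the 8 other ligand genes 4 were tested and none passed in either CA2 shRNA comparison. GDF11, which encodes an activin-related ligand, was at 32.7, 31.9 and 31.3 CPM on average in Control, Scrambled and CA2 shRNA cells. INHA, the inhibin alpha subunit that turns beta subunits from activin into inhibin, was at 3.51, 4.12 and 3.79 CPM. At an unadjusted p under 0.05 there was 1 of these 4 genes against Scrambled and 0 against Control.

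Of 9 other receptor and co-receptor genes 7 were tested, and 3 rose and 1 fell against Scrambled (2 and 2 against Control). ACVR2B, a type II activin receptor, averaged 19.2 CPM in Scrambled and 27.4 in CA2 shRNA cells, a log2 difference of 0.52 (adjusted p = 0.00343), and 0.43 against Control (adjusted p = 0.0133). ACVR1B, the activin type I receptor ALK4, rose less, by 0.27 (adjusted p = 0.0204) and 0.23 (adjusted p = 0.0452). ENG, the endothelial TGF-beta co-receptor endoglin, fell by 0.27 (adjusted p = 0.00166) and 0.37 (adjusted p = 9.76e-05). TGFBRAP1, a protein that binds TGF-beta receptors, differed by 0.16 (adjusted p = 0.0473) and 0.13 (adjusted p = 0.123). Leaving out Control 2 ended the calls of ACVR2B (adjusted p = 0.0861) and ACVR1B (0.245) against Control, as did leaving out CA2 shRNA 2 (0.0698 and 0.267). ACVR2B against Control was also lost without CA2 shRNA 3 (0.0564), and ACVR1B against Control without Control 3 (0.113) or Scrambled 3 (0.0685). Against Scrambled, ACVR1B was lost without Scrambled 1 (adjusted p = 0.0511), Scrambled 3 (0.0788) or CA2 shRNA 2 (0.134). TGFBRAP1 was lost without Control 1, 2 or 3, Scrambled 1 or 3, or CA2 shRNA 2, with adjusted p of 0.0521 to 0.195. It was also lost with upper-quartile factors (0.0695), no filter (0.0899) and a fit of the 2 groups alone (0.0667).

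Among 18 genes for latency, activation and extracellular binding of the ligands, 13 were tested, and 1 rose and 4 fell against Scrambled (1 and 5 against Control). FBN1, the microfibril protein fibrillin 1 that anchors latent TGF-beta complexes, averaged 259 CPM in both control groups and 104 in CA2 shRNA cells, a log2 difference of -1.31 in both comparisons (adjusted p = 1.28e-09 and 1.13e-09). FURIN, the protease that cleaves TGF-beta and activin precursors, averaged 300.4 CPM in Control, 289 in Scrambled and 171 in CA2 shRNA cells, with log2 differences of -0.76 from Scrambled and -0.82 from Control (adjusted p = 1.71e-08 and 6.99e-09). THBS1, thrombospondin 1, which can release active TGF-beta, fell by 0.35 (adjusted p = 0.000894) and 0.46 (adjusted p = 6.63e-05). ITGB8, an integrin subunit that activates latent TGF-beta, rose by 0.48 (adjusted p = 0.00346) and 0.38 (adjusted p = 0.0183). The call of ITGB8 against Control was lost without Control 1 (adjusted p = 0.0513), Control 2 (0.0945) or CA2 shRNA 3 (0.0736). The latent binding proteins LTBP1, LTBP2, LTBP3 and LTBP4 did not pass in either comparison.

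All 7 genes of SMADs and their direct partners were tested, and 1 rose and 3 fell against Scrambled (0 and 3 against Control). SMAD2 averaged 138 CPM in Control, 126 in Scrambled and 93.2 in CA2 shRNA cells, log2 differences of -0.43 (adjusted p = 0.00435) and -0.56 (adjusted p = 0.000602). SMAD4, the shared partner, fell by 0.31 (adjusted p = 0.00549) and 0.43 (adjusted p = 0.000356). SMAD3 had the highest level of the 3 and the smallest fall, 0.20 (adjusted p = 0.00789) and 0.16 (adjusted p = 0.0279). Against Scrambled the call of SMAD3 was lost without CA2 shRNA 1 (adjusted p = 0.0659) or CA2 shRNA 3 (0.0638). Against Control it was lost without Control 2, Control 3, Scrambled 2, CA2 shRNA 1 or CA2 shRNA 3, without Control 3 and Scrambled 2 together (0.213), and with DESeq2 size factors (0.0665). USP15, a deubiquitinase that acts on TGFBR1 and SMADs, rose by 0.41 against Scrambled (adjusted p = 0.0188) and differed by 0.20 from Control (adjusted p = 0.282). Its call was lost without Scrambled 1 (0.0589) or CA2 shRNA 1 (0.0511).

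Of 13 intracellular inhibitors, all tested, 1 rose and 3 fell against Scrambled (2 and 3 against Control). LDLRAD4 and PMEPA1, which bind SMAD2 and SMAD3 and are themselves known targets of TGF-beta, fell together: LDLRAD4 by 0.89 (adjusted p = 0.00314) and 0.92 (adjusted p = 0.00255), and PMEPA1 by 0.57 (adjusted p = 3.2e-06) and 0.54 (adjusted p = 6.1e-06). The co-repressors SKI and SKIL differed in direction: SKI rose by 0.25 (adjusted p = 0.00346) and 0.18 (adjusted p = 0.0272), and SKIL fell by 0.35 (adjusted p = 0.0491) and 0.44 (adjusted p = 0.0192). SKIL against Scrambled was lost without any single library other than Scrambled 1 and CA2 shRNA 3, and without Control 3 and Scrambled 2 together (adjusted p = 0.146). It was also lost with DESeq2 size factors (0.0534), library totals (0.0648) and a fit of the 2 groups alone (0.0988). SKIL against Control was lost without Control 2 (0.0584), Control 3 (0.0578) or CA2 shRNA 1 (0.0645). SKI against Control was lost without Control 1 (0.0689), Control 2 (0.109), Control 3 (0.0846) or CA2 shRNA 2 (0.133). The inhibitory SMADs SMAD6 and SMAD7 did not pass in either comparison.

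Among 12 target genes, all tested, 1 rose and 7 fell against Scrambled (1 and 5 against Control). CCN2, the matricellular growth factor CTGF, averaged 146 CPM in Control, 136 in Scrambled and 62.3 in CA2 shRNA cells, log2 differences of -1.13 (adjusted p = 4.83e-10) and -1.23 (adjusted p = 1.82e-10). TAGLN, the actin-binding protein transgelin, fell by 0.77 (adjusted p = 0.000335) and 0.92 (adjusted p = 5.99e-05). IGFBP3, a binding protein of insulin-like growth factors, fell by 0.69 (adjusted p = 0.000156) and 0.77 (adjusted p = 5.48e-05), and TPM1, a tropomyosin, by 0.58 (adjusted p = 2.02e-07) and 0.55 (adjusted p = 3.73e-07). The gene that rose was CDKN1A, a cell cycle inhibitor, by 0.445 (adjusted p = 0.00195) and 0.51 (adjusted p = 0.000695). CDKN1A was named after its values were seen.

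**Figure D4:**
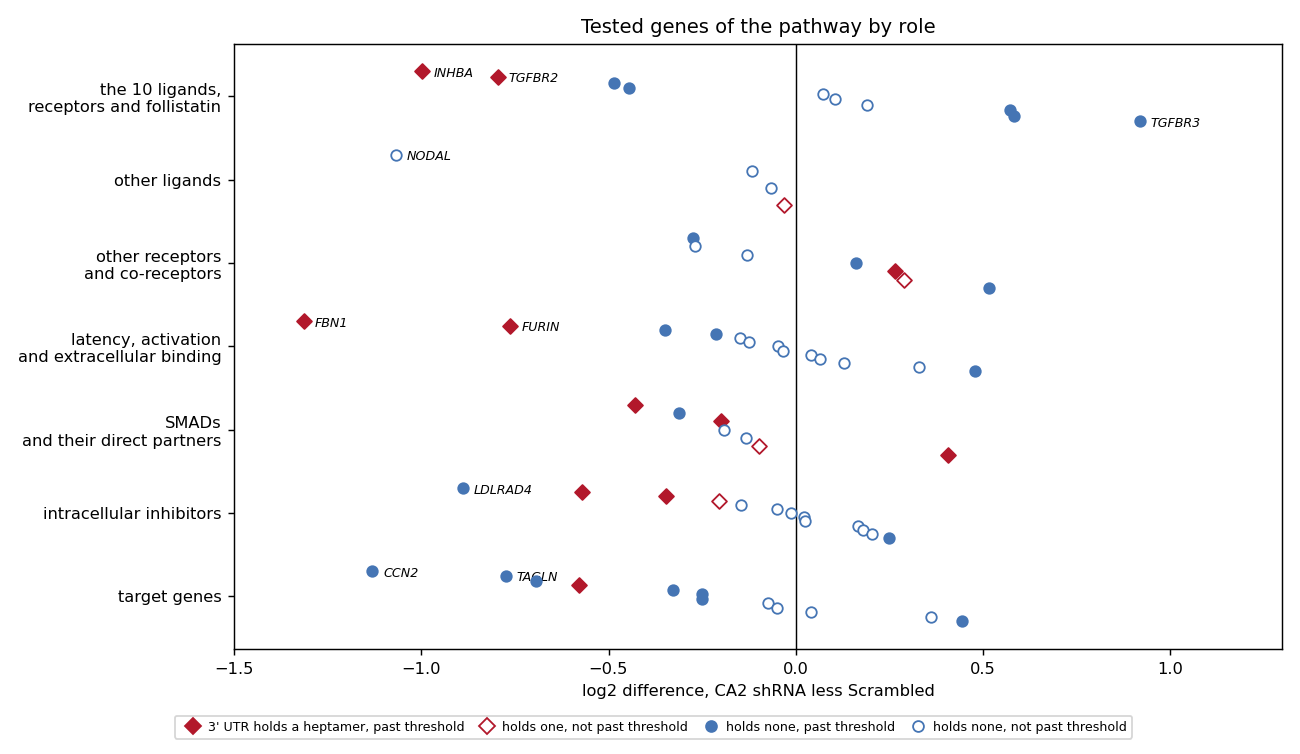
Log2 difference of CA2 shRNA less Scrambled (horizontal axis) for the 10 genes and the 56 other tested pathway genes by role; filled points passed the edgeR threshold, and red diamonds have a 3′ UTR with either heptamer. FBN1, CCN2, INHBA and TGFBR2 lie among the lowest; NODAL, also far to the left, did not pass.

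The 2 heptamers were searched on the transcript strand only, in the annotated 3′ UTRs of protein-coding transcripts of protein-coding genes in GENCODE 29. Transcripts marked there as incomplete at the end of the mRNA or of the coding sequence were left out. Either heptamer was held by 2 of the 10 genes, and by 20.4% of the 13962 tested genes with an annotated 3′ UTR. Of the other 5 genes that passed the threshold, TGFB1 and TGFB2 fell and INHBB, TGFBR1 and TGFBR3 rose, all 5 without either heptamer. The longest 3′ UTR was 4536 bases for INHBA and 2543 for TGFBR2. It was 729 for TGFB1, 3257 for TGFB2, 4887 for TGFBR1 and 3394 for TGFBR3. The part of UTR length in which genes hold a match was not tested. Of the 56 other pathway genes 13 held one: 7 of these fell, 2 rose and 4 did not pass against Scrambled. Of the 43 without one, 11 fell, 5 rose and 27 did not pass. Over all tested genes with a 3′ UTR, 741 of the 2852 with a heptamer fell and 151 rose, against 757 and 1420 of the 11110 without.

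FURIN, SMAD3 and PMEPA1 are shown as examples of falling genes of the pathway with a site, and ACVR1B as one that rose with a site. The examples follow no stated rule. FBN1, SMAD2, SKIL and TPM1 also fell against Scrambled with a site, and USP15 also rose. GDF11, ACVR2A, TRIM33 and SMAD7 held a site and did not pass. The windows of FURIN, SMAD3, PMEPA1 and ACVR1B lie on GRCh38 at chr15:90881922-90881950 (plus strand), chr15:67194705-67194734 (plus), chr20:57650670-57650698 (minus) and chr12:51994507-51994535 (plus).
FURIN: actttttaattCACCAAAgtattttttta
SMAD3: agcatccagaaACACCAAAccaggctggct
PMEPA1: cagttgagcaaACACCAAcccgagcttcg
ACVR1B: cagcccacagcACACCAAggtggcccgga

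Over all tested genes with a 3′ UTR, either heptamer was held by 49.5% of the 1498 genes that fell against Scrambled, 18.0% of the 10893 that did not pass and 9.61% of the 1571 that rose. The shares against Control were 51.9%, 17.4% and 10.7%. The median log2 difference from Scrambled was -0.13 over the 2852 genes with a heptamer and 0.04 over the 11110 without. The median longest 3′ UTR was 1842 bases in the genes that fell, 1592 in those that rose and 1241 in those that did not pass, and the shares were not matched for this length. A match is a stretch of letters and no shown binding site, and the part of such sites in the differences of INHBA and TGFBR2 was not tested.

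**Figure D5:**
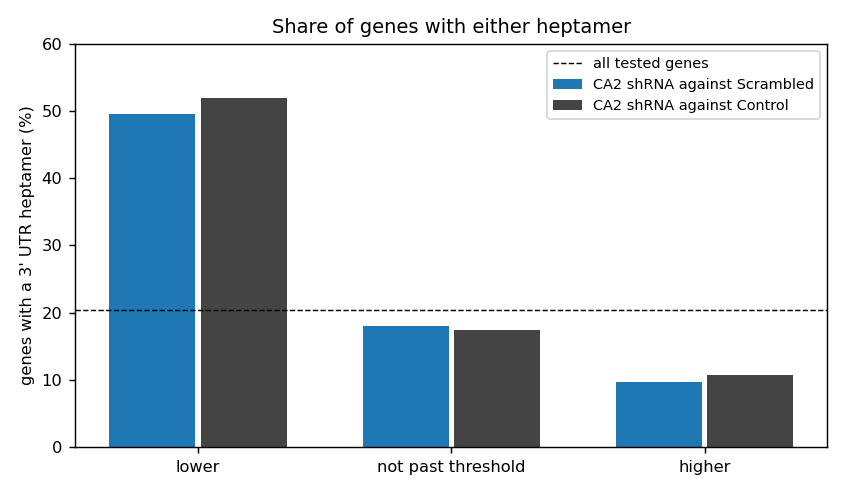
Share of tested genes whose 3′ UTR holds either heptamer (vertical axis, percent, from 0) among genes that were lower, did not pass or were higher in each CA2 shRNA comparison; the dashed line is the share over all tested genes, 20.4%. The bars stand at 49.5% and 51.9% for lower genes and at 9.61% and 10.7% for higher genes; the heptamers were picked in these libraries, so the bars are no test.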

How the data were processed

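RNA of 9 C28/I2 libraries (3 Control, 3 Scrambled, 3 CA2 shRNA) was measured by RNA-seq. The deposited files hold raw counts per gene for 60671 Ensembl genes with exon coordinates, beside CPM and RPKM columns that the authors computed. Recomputing CPM and RPKM from the counts and exon lengths gave the deposited values. Per the submitters' processing notes, bcl2fastq, STAR 2.5.1a and featureCounts 1.4.6-p5 were used with GRCh38. For the annotation release, the strand setting and multimapping reads, the choice is not given in the sources used here. Symbols were matched for 60401 gene IDs.

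The counts were fitted with edgeR 4.0.16 (R 4.3.3) in 1 quasi-likelihood model of 9 libraries, after filterByExpr and TMM scaling (factors 0.977 to 1.012), with 6 residual degrees of freedom and a biological coefficient of variation of 7.94%. Adjusted p-values are Benjamini-Hochberg over 19812 genes, with a threshold of 0.05. For 3 libraries against 3 the smallest p of an exact permutation test is 0.1, so none was used. CPM here are scaled with TMM factors, and RPKM are these per kilobase of exon. Libraries within a group differed by a chi-square of 4.64 to 19.62 per gene, so none was a repeat of another. The scripts were tested on simulated data.

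The genes, the pathway list and the heptamers were chosen with earlier results of these data known. Named pathway genes are, per role, up to 4 of the largest differences past the threshold against Scrambled, or the 2 of highest level where none passed. Outside this rule, LTBP1, LTBP2, LTBP3, LTBP4, SMAD6, SMAD7 and CDKN1A were named by choice. ACVR2A and TRIM33 were named for holding a heptamer, and NODAL for its place in a figure. The 3′ UTRs come from GENCODE 29 on the same build. Of the gene IDs in the files 58453 were in it, 44967 with the same start and end, among them 3 of the 10 genes, so the releases differ. Every printed window lies within an exon that the files count.

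The labels give the groups the same replicate numbers but no pairing. Of 9 same-numbered pairs 1 had a correlation of deviations over 0.1 (range -0.185 to 0.105), so the numbers were not taken as pairs. Alternatives were other scalings, DESeq2 1.42.0, no filter, fits of 2 groups, the replicate block, and leaving out each library or Control 3 with Scrambled 2.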

Additional observations from a re-analysis of the deposited data

How the results depend on the processing

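The 10 genes kept the sign of each CA2 shRNA difference under every alternative that was run, other than TGFB3 against Control, which did not pass and was at -0.04 without Control 3 and -0.012 without Control 3 and Scrambled 2. The calls lost were those of INHBB and TGFBR1 against Control, where 5 to 7 of the 10 genes passed with 1 library left out. The replicate block, which rests on shared numbers alone, gave 7 of the 10 genes in each CA2 shRNA comparison and 3422 and 2946 genes in all (3348 and 2906 without it), and 2 of 9 libraries correlated best with their own number. With this block ACVR1B against Control no longer passed (adjusted p = 0.0542). With 1 library left out, 2059 (without Scrambled 3) to 4011 genes passed against Scrambled, 15 (without Control 2) to 26 of the 56 other pathway genes passed against Control, and 0 to 1 genes passed between Scrambled and Control. That last count, 0 in the report, was 1 with DESeq2 and 7 with no filter. Log2 differences near 0 moved by over 1 SE and changed sign with 1 library left out: GDF11 ran from -0.092 to 0.052 against Scrambled and from -0.128 to 0.021 against Control, and INHA from -0.244 to 0.125 against Scrambled. For Scrambled against Control, INHA ran from -0.027 to 0.356, TGFB3 from -0.23 to 0.168 and TGFBR1 from -0.208 to 0.021. The cause was not tested. No scaling moved the median of all genes by over 0.1 on the log2 scale. Fits with a library left out assume that the remaining libraries vary alike. TGFB3, FST and TGFBR3, at 2.46 to 10.46 CPM, are the least precise of the 10 genes.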
